A study of Phyllostachys edulis with 2 samples.

Results

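PH02Gene01641 and PH02Gene01637 are 2 of the 50936 genes counted in single cells of moso bamboo basal roots. The study lists PH02Gene01641 as an ortholog of the rice locus LOC_Os10g40510 and PH02Gene01637 as the ortholog of LOC_Os10g40520, among orthologs of genes that mark cell types in rice roots. Both genes were taken from that list by their identifiers, with earlier results of these data known, and both were found in the count tables. The rice loci have neighbouring numbers on their chromosome. The bamboo identifiers are close as well, with 3 other identifiers between them. The list gives no symbol for either rice locus and the sources used here state no function for the bamboo genes, so neither gene is given a role. PH02Gene02952, the second bamboo ortholog of LOC_Os10g40510, is shown beside them.

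The cells were protoplasts, which are cells freed of their walls by enzymes, from basal root tips of moso bamboo (Phyllostachys edulis) labelled as 6 to 8 weeks old. Root tips of about 2 cm were digested for 3 h and captured in droplets with a 3' kit. The 2 replicates, replicate 1 and replicate 2, share this condition, and no treatment, mutant or second tissue was sequenced beside them. Cell types with walls that resist digestion can be missed in such a sample. All tests below therefore compare groups of cells within the same 2 libraries, and their p-values measure only the spread between these libraries.

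Genes that lie side by side in a plant genome often go back to the duplication of 1 ancestor, and the copies can keep the same place of expression or come to differ in it. No sequence or position of PH02Gene01641 and PH02Gene01637 was at hand, so whether they are such copies was not tested. A marker gene moved from rice to bamboo by orthology carries with it the cell type it marks in rice only if its expression was conserved. Ground tissue is the part of the root between the epidermis and the vascular cylinder, the root cap covers the tip, and the initial cells divide to supply the other tissues. The question for both genes was in which cell groups their transcripts lay, and whether they lay in the same cells.

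Replicate 1 held 7668 barcodes with 36419750 UMIs, and replicate 2 held 7656 barcodes with 42126823 UMIs. A UMI is a molecular tag that counts each captured transcript once. Cells with more than 500 genes were kept, 7653 in replicate 1 and 7651 in replicate 2, and 15 barcode sequences occurred in both libraries. Clustering gave 13 groups, which were matched to the clusters of the paper through that paper's own markers and are called by its numbers. The tissue words are those of the paper, namely ground tissue for Clusters 0, 1, 5 and 10, root cap for Clusters 7, 8, 11 and 12, epidermis for Cluster 6, initial cells for Cluster 9 and transition cells for Cluster 2, while Clusters 3 and 4 are undefined. Clusters 0 and 5 shared 1 group of 4057 cells, and Clusters 8 and 10, which belong to different tissues in the paper, shared 1 group of 687 cells. A larger group of 941 cells (306 and 635 in the replicates) and a smaller group of 118 cells matched no cluster. With under 3 markers per cluster, no cell type was named from these matches. The ground tissue cells were shallow, with a median of 998 UMIs in Clusters 0 and 5 and 1191 in Cluster 1, against 4896 to 9716 in the other groups apart from Cluster 12 (1619) and the smaller unmatched group (1542).

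Both genes were of moderate abundance, yet most cells held none of their UMIs. PH02Gene01641 had 464 UMIs in replicate 1 and 619 in replicate 2, or 12.7 and 14.7 CPM, a unit in which UMIs are scaled to the same total in every group. PH02Gene01637 had 388 and 635 UMIs, or 10.7 and 15.1 CPM. Among the 39696 genes with at least 1 UMI, whose median level was 1.85 CPM, PH02Gene01641 stood above 77.7% and PH02Gene01637 above 76.9%. PH02Gene01641 was detected in 398 and 502 cells and PH02Gene01637 in 246 and 354 cells, of 7653 and 7651. No cell group is known to lack either gene, so UMIs from free RNA cannot be told apart from expression where levels were lowest.

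The transcripts were spread over cells in different ways. Of the cells with PH02Gene01641, 351 of 398 in replicate 1 and 430 of 502 in replicate 2 held a single UMI, and the highest cell had 6 and 11 UMIs. Of the cells with PH02Gene01637, 209 of 246 and 271 of 354 held a single UMI, but the highest cell had 27 and 18 UMIs. Cells with 5 or more UMIs numbered 3 and 5 for PH02Gene01641 and carried 3.88% and 5.98% of its UMIs. The 12 and 24 such cells of PH02Gene01637 carried 28.1% and 33.2% of its UMIs, so that fewer cells held a larger part of its transcripts in both replicates. Of these 36 cells of PH02Gene01637, 27 lay in the larger unmatched group, 4 in Clusters 8 and 10, 2 in Cluster 1, 2 in Cluster 6 and 1 in Cluster 9.

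By CPM, PH02Gene01641 was highest in ground tissue. Cluster 1 cells had 47.1 CPM in replicate 1 and 44.3 CPM in replicate 2, from 72 and 65 UMIs. Clusters 0 and 5 followed with 27.3 and 31.5 CPM, and the larger unmatched group with 21.7 and 21.4 CPM. These 3 steps did not overlap between the replicates. Cluster 4 had 16.0 and 15.2 CPM, Cluster 6 had 13.2 and 17.9 CPM and Cluster 3 had 13.3 and 15.7 CPM, and these neighbours in the order were within each other's spread. The remaining matched groups were low. Cluster 11 had 5.18 and 7.21 CPM, Clusters 8 and 10 had 5.19 and 6.85 CPM, and Cluster 9 had 5.67 and 4.65 CPM. Cluster 7 had 5.18 and 4.67 CPM and Cluster 2 had 3.23 and 6.36 CPM. Neighbours among these low groups overlapped in every case. Cluster 12 held 0 and 1 UMI and the smaller unmatched group 2 and 1 UMIs, too few to place either.

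PH02Gene01637 had another order. The larger unmatched group was at the top with 74.8 CPM in replicate 1 and 56.5 CPM in replicate 2. It held 493 of the 1023 UMIs of this gene, 48.2%, in 6.15% of the cells, which held 10.1% of all UMIs. Cluster 1 had 35.3 and 43.7 CPM. Clusters 8 and 10 had 18.2 and 21.8 CPM and Clusters 0 and 5 had 19.4 and 18.7 CPM, and these values overlapped. The larger unmatched group therefore stood apart from Cluster 1, and Cluster 1 from these 2 groups, in both replicates. Low levels were found in Cluster 6 with 2.96 and 9.58 CPM, Cluster 4 with 3.47 and 5.68 CPM and Cluster 11 with 2.96 and 4.33 CPM. Cluster 7 had 2.45 and 4.18 CPM, Cluster 2 had 2.72 and 2.62 CPM, Cluster 9 had 1.89 and 3.10 CPM and Cluster 3 had 1.06 and 2.38 CPM. Each of these 7 groups overlapped with the next in the order. Cluster 12 held 2 and 1 UMIs in 18 and 23 cells, so its 36.5 and 10.7 CPM rest on 3 transcripts.

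Which group led depended on how the cells were clustered. For PH02Gene01637 the leading group was the one matched to Cluster 10 with at least 200 genes per cell (mean 78.1 CPM in 255 cells) and the one matched to Clusters 8 and 10 at a resolution of 0.6 (61.5 CPM in 1059 cells). The group of 255 cells had 50.9 CPM in replicate 1 and 105.3 CPM in replicate 2, and that of 1059 cells 53.8 and 69.2 CPM. In 3 other clusterings 1 group led for both genes. With the genes and markers left among the variable genes it was the group of 791 cells matched to Cluster 10 (51.9 CPM of PH02Gene01641 and 100.3 CPM of PH02Gene01637), in cells with at least 2000 UMIs an unmatched group of 363 cells (27.2 and 116.7 CPM), and at a resolution of 1.0 an unmatched group of 616 cells (88.7 and 93.6 CPM).

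**Figure D1:**
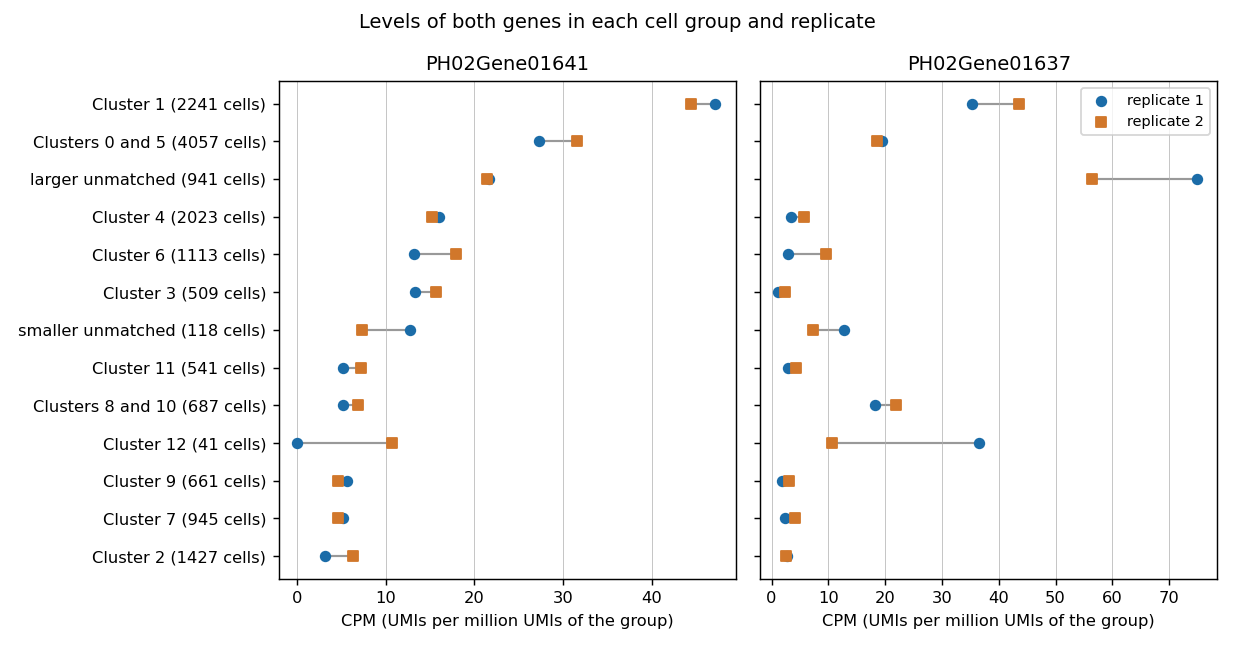
CPM (x axis) of PH02Gene01641 (left) and PH02Gene01637 (right) in each cell group (y axis, ordered by the mean level of PH02Gene01641), with circles for replicate 1, squares for replicate 2 and a line between them. PH02Gene01641 is highest in Cluster 1 (47.1 and 44.3 CPM), and PH02Gene01637 in the larger unmatched group (74.8 and 56.5 CPM).

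PH02Gene02952, the other ortholog of LOC_Os10g40510, was the rarest of the 3 genes, with 105 and 150 UMIs or 2.88 and 3.56 CPM. Cluster 1 had 26.8 and 34.1 CPM of it, Clusters 0 and 5 had 8.33 and 7.88 CPM and the larger unmatched group had 8.93 and 7.49 CPM. All other groups with 100 cells or more were between 0 and 6.39 CPM in either replicate. Cluster 1 thus led the order for both orthologs of LOC_Os10g40510.

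The share of the pair's UMIs that came from PH02Gene01637 showed how unlike the patterns were. It was 77.5% in replicate 1 and 72.5% in replicate 2 in the larger unmatched group, with 95% Clopper-Pearson intervals of 71.5 to 82.8 and 68.1 to 76.7. In Clusters 8 and 10 it was 77.8% and 76.1% (62.9 to 88.8 and 64.1 to 85.7). Cluster 1 was at 42.9% and 49.6% (34.1 to 52.0 and 40.7 to 58.5), below both of these groups. Cluster 4 was at 17.9% and 27.2% (11.9 to 25.2 and 20.4 to 34.9), and Cluster 3 at 7.41% and 13.2% (0.910 to 24.3 and 4.41 to 28.1). The intervals cover counting error only. In Cluster 6 the replicates differed, at 18.3% and 34.9% (10.6 to 28.4 and 27.8 to 42.4).

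**Figure D2:**
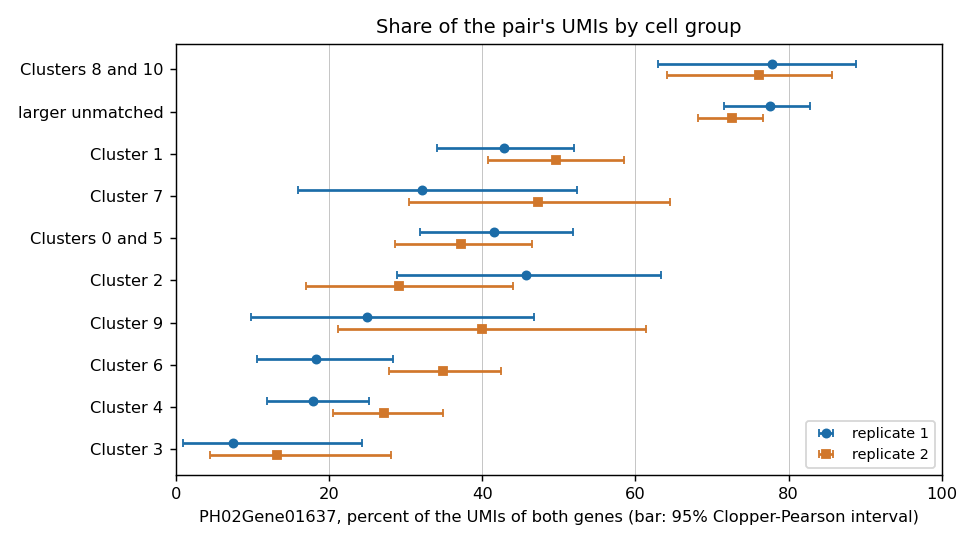
UMIs of PH02Gene01637 as a percent of the UMIs of both genes (x axis) in the cell groups with at least 20 such UMIs in each replicate (y axis), with circles for replicate 1, squares for replicate 2 and bars for 95% Clopper-Pearson intervals. The larger unmatched group and Clusters 8 and 10 lie at 72.5% or more in both replicates and Cluster 3 at 13.2% or less.

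Ground tissue was first set against root cap, to ask whether the genes differ between an inner tissue and the outermost cells of the tip. In the tests below the ground tissue side was the group of Clusters 0 and 5 and the group of Cluster 1. The group shared by Clusters 8 and 10 was left out of it, counted as root cap, and was set against ground tissue in a comparison of its own. PH02Gene01641 was 4.95-fold higher in the ground tissue groups (log2 difference 2.31, SE 0.24, edgeR adjusted p = 3.1e-13). PH02Gene01637 was 2.61-fold higher (log2 difference 1.39, SE 0.26, edgeR adjusted p = 9.5e-06). Both genes were thus called higher, where 25.0% of the 22471 genes tested were called higher. The difference of PH02Gene01637 was lost when the genes and markers were left among the variable genes that drive the clustering (log2 difference 0.33, edgeR adjusted p = 0.43), and at a clustering resolution of 1.0 (0.95, edgeR adjusted p = 0.058). At a resolution of 1.0 the unmatched group of 616 cells, highest for both genes, was not part of the ground tissue side in any comparison. Without the cells shared by Clusters 8 and 10 in root cap the log2 differences were 2.34 and 1.83. Without Cluster 12, 28.1% of the genes were higher and 53.7% of all calls were on the higher side, against 69.6% with it, and both genes remained called. In replicate 1 alone, where the 18 cells of Cluster 12 held 0 UMIs of PH02Gene01641, its log2 difference was 4.11, with no test.

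The initial cells, Cluster 9, had little of either gene. Against them the ground tissue groups had 4.01-fold more PH02Gene01641 (log2 difference 2.01, SE 0.25, edgeR adjusted p = 1.9e-11) and 6.14-fold more PH02Gene01637 (2.62, SE 0.34, edgeR adjusted p = 2.0e-10). Both were higher in a comparison where 36.0% of the genes were. With RLE size factors 67.4% of all calls were on the higher side, against 53.3% with TMM.

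Against the epidermis, Cluster 6, the difference of PH02Gene01641 was small. It was 1.48-fold higher in ground tissue (log2 difference 0.57, SE 0.16, edgeR adjusted p = 0.0017), and PH02Gene01637 was 2.63-fold higher (1.39, SE 0.23, edgeR adjusted p = 1.2e-07). Of all genes, 35.1% were higher in ground tissue, and of all calls 51.6% with TMM and 66.3% with RLE size factors. The difference of PH02Gene01637 was 0.81 in replicate 2 alone and 2.52 in replicate 1 alone, with no test. For PH02Gene01641 the sign turned at resolution 1.0 (log2 difference -0.22, edgeR adjusted p = 0.45), and the call was lost in cells with at least 2000 UMIs (0.29, edgeR adjusted p = 0.33) and with the genes and markers among the variable genes (0.33, edgeR adjusted p = 0.074). For PH02Gene01637 the call was lost at resolution 1.0 (0.65, edgeR adjusted p = 0.085).

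Within ground tissue, Cluster 1 was compared with Cluster 0. PH02Gene01641 was 1.44-fold higher in Cluster 1 (log2 difference 0.53, SE 0.20, edgeR adjusted p = 0.043) and PH02Gene01637 was 1.92-fold higher (0.94, SE 0.25, edgeR adjusted p = 0.0026), where 12.1% of the genes were higher. Of all calls, 46.2% were on the higher side with TMM and 71.4% with RLE size factors, and both genes remained called with either. The call of PH02Gene01641 was lost in 4 of 9 alternatives and that of PH02Gene01637 in 2 of 10. With the genes and markers left among the variable genes the values were -0.064 and -0.072 (edgeR adjusted p = 0.89 and 0.91), and at resolution 1.0 they were 0.75 and 0.64 (edgeR adjusted p = 0.17 and 0.40). PH02Gene01641 was also not called with at least 200 genes per cell (0.51, edgeR adjusted p = 0.055) and without a filter on low counts (0.48, edgeR adjusted p = 0.12).

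The cells matched to Cluster 10 were set against the other ground tissue groups, and the genes parted there. PH02Gene01641 was 0.216-fold as high (log2 difference -2.21, SE 0.26, edgeR adjusted p = 1.7e-11), in a comparison where 22.7% of the genes were lower. PH02Gene01637 gave -0.07 (SE 0.23, edgeR adjusted p = 0.83). This comparison rests on which cells are called Cluster 10, since the group of 687 cells is also matched to Cluster 8. Of all genes, 24.5% were higher in these cells. With at least 200 genes per cell Cluster 10 had a group of its own with 255 cells, 213 of them from the 687, and PH02Gene01637 was higher in it by 1.42 (edgeR adjusted p = 1.3e-05). At resolution 0.6 it was higher by 1.43 (edgeR adjusted p = 1.5e-13) in a group of 1059 cells, of which 367 were cells of the larger unmatched group. At resolution 1.0 Cluster 10 again had a group of its own, with 371 cells, 143 of them cells called Cluster 11 above. There PH02Gene01637 was higher by 2.18 (edgeR adjusted p = 6.1e-08) and PH02Gene01641 had -0.74 (edgeR adjusted p = 0.23). With the genes and markers among the variable genes, PH02Gene01641 turned to 0.74 (edgeR adjusted p = 0.0068) and PH02Gene01637 to 2.47 (edgeR adjusted p = 7.6e-18), and 551 of the 791 cells then matched to Cluster 10 were the cells called Cluster 1 above.

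The undefined Clusters 3 and 4 had less of both genes than ground tissue. PH02Gene01641 fell by 1.05 on the log2 scale (SE 0.15, edgeR adjusted p = 4.8e-09) and PH02Gene01637 by 3.01 (SE 0.26, edgeR adjusted p = 8.7e-18), where 37.8% of the genes were lower. At resolution 1.0 PH02Gene01641 had -0.18 (edgeR adjusted p = 0.53), while PH02Gene01637 remained lower (-1.40, edgeR adjusted p = 0.00035).

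Between root cap and initial cells, PH02Gene01641 gave -0.30 (SE 0.45, edgeR adjusted p = 0.69), and PH02Gene01637 was 2.35-fold higher in root cap (log2 difference 1.23, SE 0.50, edgeR adjusted p = 0.036), where 13.9% of the genes were higher. Of all calls, 31.0% were on the higher side with TMM, 44.5% with RLE size factors and 56.1% with DESeq2. Without the 41 cells of Cluster 12, 29.6% of the genes were higher and 48.6% of all calls were on the higher side, and PH02Gene01637 had 0.99 (edgeR adjusted p = 0.043). Its call was lost in 4 of 13 alternatives. The log2 difference was 0.79 without the cells shared by Clusters 8 and 10 (edgeR adjusted p = 0.29) and 0.91 at resolution 1.0 (edgeR adjusted p = 0.18). It was 1.80 in cells with at least 2000 UMIs (edgeR adjusted p = 0.0999) and 4.83 in thinned cells (edgeR adjusted p = 0.090).

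**Figure D3:**
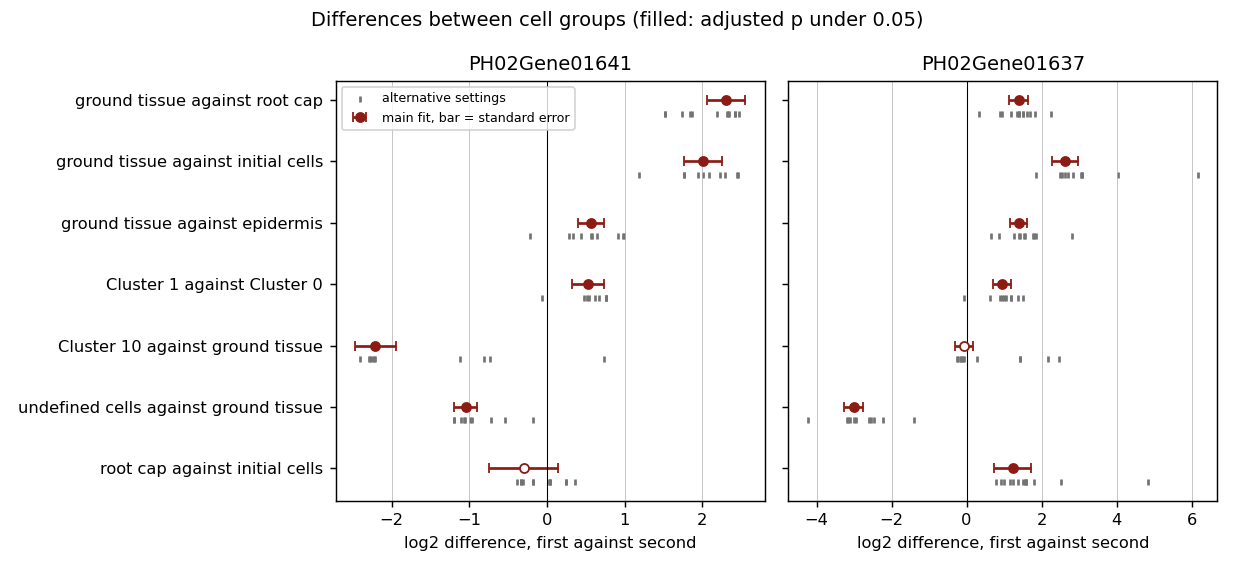
Log2 differences (x axis) of PH02Gene01641 (left) and PH02Gene01637 (right) for 7 comparisons of cell groups (y axis), with points for the edgeR test, bars for the standard error, filled points for adjusted p under 0.05 and grey marks for the alternative settings. The points of both genes lie above 0 in the first 4 comparisons, while some grey marks lie below 0 for ground tissue against epidermis (PH02Gene01641, -0.22) and for Cluster 1 against Cluster 0 (-0.064 and -0.072).

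Depth moved with these tissues, as the ground tissue cells had the fewest UMIs. Over all kept cells PH02Gene01641 had 42.9 and 44.6 CPM in cells with 500 to 1000 UMIs and 10.0 and 12.2 CPM in cells with 5000 UMIs or more. PH02Gene01637 had 32.8 and 36.0 CPM in the first class and 8.15 and 13.1 CPM in the second. The cells with at least 2000 UMIs were also clustered anew. There 1 group of 706 cells matched Clusters 0, 1 and 5, so that Cluster 1 could not be compared with Cluster 0. Of these 706 cells 329 were cells of the larger unmatched group, 234 of Cluster 1 and 112 of Clusters 0 and 5, so it was not the ground tissue of the comparisons above. The group was above root cap for PH02Gene01641 (log2 difference 1.74, edgeR adjusted p = 0.00010) and for PH02Gene01637 (2.24, edgeR adjusted p = 2.1e-05).

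The ground tissue cells, those matched to Clusters 0, 1, 5 and 10, were then clustered on their own into 9 subclusters. By mean level both genes were highest in subcluster 3, which had 754 cells, 601 of them from Cluster 1, and a median depth of 958 UMIs. It had 87.2 CPM of PH02Gene01641 in replicate 1 and 80.5 CPM in replicate 2, from 35 and 34 UMIs. It had 84.7 and 78.1 CPM of PH02Gene01637, from 34 and 33 UMIs, and 92.2 and 82.9 CPM of PH02Gene02952. For PH02Gene01641 and PH02Gene02952 no other subcluster overlapped with it. Subcluster 4, with 484 cells from Cluster 1 and 145 from Clusters 8 and 10 among its 660, had 54.5 and 92.5 CPM of PH02Gene01637, so its range took in that of subcluster 3, but only 32.7 and 34.9 CPM of PH02Gene01641. Subcluster 5, in which 575 of 623 cells came from Cluster 1, had 15.6 and 26.1 CPM of PH02Gene01641 and 17.9 and 16.6 CPM of PH02Gene01637. The level of Cluster 1 was therefore an average over unlike cells.

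Subcluster 6, with 522 of its 531 cells from Clusters 8 and 10, was the lowest of the subclusters with 100 cells or more. It had 5.69 and 5.90 CPM of PH02Gene01641 and 9.67 and 8.17 CPM of PH02Gene01637. After these results had been seen, the step was repeated at resolutions of 0.6 and 1.0 and with random seeds 2 and 3. Among subclusters of 100 cells or more 1 was highest for both genes in each of these, and it held 90.6% to 96.6% of the cells of subcluster 3. In the 6 other clusterings of all cells these cells were less held together, as the group with the most of them held 83.0% with 30 principal components, 79.4% with at least 200 genes per cell, 51.1% and 40.7% at resolutions of 0.6 and 1.0, 38.6% with the genes and markers among the variable genes and 3.58% in cells with at least 2000 UMIs, a depth that most of them do not reach. The finer divisions moved, as both seeds gave 11 subclusters, 1 of them with 27 cells that had 129 and 133 CPM of PH02Gene01641 from 6 and 6 UMIs. These 27 cells had 301 and 222 CPM of PH02Gene02952 from 14 and 10 UMIs. With seed 2, where they stood apart, the highest subcluster of 100 cells or more had 66.7 and 64.0 CPM of PH02Gene02952.

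The larger unmatched group was divided in the same way, after its level of PH02Gene01637 had been seen. Subcluster 4, with 137 of the 941 cells and a median of 9823 UMIs, had 182 and 200.1 CPM of PH02Gene01637 from 122 and 131 UMIs, 24.7% of all UMIs of the gene in the kept cells. It also led for PH02Gene01641, with 43.2 and 56.5 CPM. PH02Gene36478, a marker used to match Cluster 10, was among the genes that led this subcluster, with 966 and 1548 CPM. The rest of the larger unmatched group had 183 CPM of it. The other marker of Cluster 10 was not among these leading genes. At a resolution of 0.6 all 137 cells lay in the group of 1059 cells matched to Clusters 8 and 10. Subcluster 0, with 238 cells and a median of 13267.5 UMIs, had 12.97 and 11.65 CPM of PH02Gene01637 and 18.5 and 12.7 CPM of PH02Gene01641. Subcluster 1 had 34.1 and 109.9 CPM of PH02Gene01637, so the replicates did not place it. In the 6 other clusterings of the cells, 133 to 137 of the 137 cells of subcluster 4 lay in 1 group. They were only 12.9% to 36.6% of that group, so these clusterings did not set them apart.

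**Figure D4:**
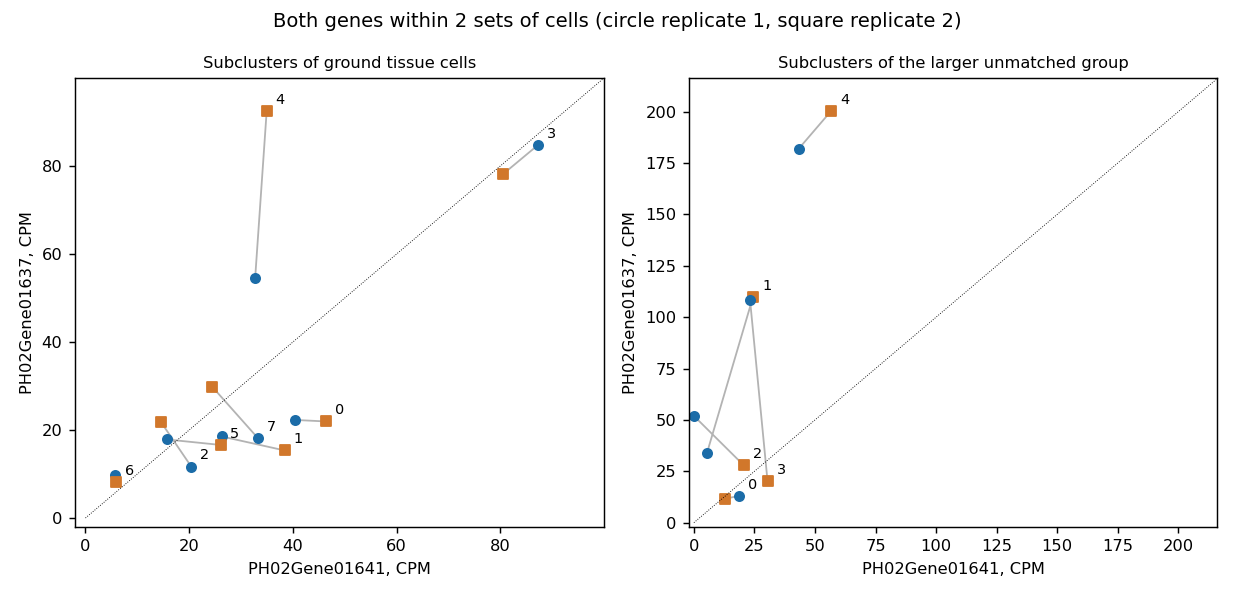
PH02Gene01637 (y axis, CPM) against PH02Gene01641 (x axis, CPM) in subclusters of at least 100 cells from ground tissue (left) and from the larger unmatched group (right), with circles for replicate 1, squares for replicate 2, a line joining the replicates of each numbered subcluster and a dotted line at equal values. Ground subcluster 3 is at 87.2 and 80.5 CPM of PH02Gene01641, and subcluster 4 of the unmatched cells is at 182 and 200.1 CPM of PH02Gene01637.

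Few cells held UMIs of both genes. In replicate 1, 30 cells did, 7.54% of the cells with PH02Gene01641 and 12.2% of those with PH02Gene01637. In replicate 2, 53 cells did, 10.6% and 15.0% of each. The product of the shares of cells with each gene, taken within each cell group, would give 16.4 and 31.1 cells, so the observed counts were 1.83 and 1.71 times these. Taking the product within 10 classes of depth in each group as well gave 18.5 and 34.1 cells, and ratios of 1.62 and 1.55. Cells with both genes were deep, with medians of 7695.5 and 10307 UMIs, against 6325 and 7233 in cells with PH02Gene01641 alone, 3672 and 5927 with PH02Gene01637 alone and 2988 and 3230 with neither.

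Of the 83 cells with both genes, 41 lay in the larger unmatched group, 11 in Cluster 1, 11 in Cluster 4, 7 in Cluster 6, 5 in Cluster 7 and 3 in Clusters 0 and 5. In the larger unmatched group 13 and 28 cells held both, where the product gives 7.29 and 15.5. In Cluster 1 there were 7 and 4 cells, where the product gives 2.14 and 2.70, and exact Poisson intervals for these counts of 2.81 to 14.4 and 1.09 to 10.2 include the product in replicate 2. Ground subcluster 3 had 5 and 3 cells with both, where the product gives 1.55 and 2.02. Such intervals also included the product for the 13 cells of the larger unmatched group and the 3 cells of subcluster 3. The products within cell groups took no account of subclusters, whose levels differed, so they cannot tell shared cells from shared subclusters. At a depth of 500 UMIs in every cell 1 and 2 cells held both genes, so co-detection could not be compared between cells of equal depth. The intervals cover counting error only.

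No gene with a neighbouring identifier and at least 10 CPM had a correlation above 0.54 with either gene. Of the 15 identifiers from PH02Gene01632 to PH02Gene01646, 14 had a UMI and 6, both genes included, reached 10 CPM over all cells, while PH02Gene01632 had 0 UMIs. PH02Gene01639, between the 2 genes by number and described by the study as a predicted protein matched to barley with monooxygenase activity, had 49.0 CPM. Its highest groups were the smaller unmatched group (313 and 154 CPM in the replicates), Clusters 8 and 10 (209 and 235 CPM), Cluster 1 (206 and 153 CPM) and Cluster 11 (86.7 and 119 CPM), and the first 2 changed places between the replicates. PH02Gene01633 (65.6 CPM), PH02Gene01635 (26.4 CPM) and PH02Gene01643 (135 CPM) were broad. Their highest groups, with both replicates summed, were Clusters 0 and 5 (85.7 CPM), Cluster 7 (51.2 CPM) and Clusters 0 and 5 (201 CPM). Below the limit of 10 CPM, PH02Gene01644 (1.82 CPM) was highest in Cluster 1, with 13.7 and 10.2 CPM in the replicates. Its correlation is not given here. Over the 26 sums of cell group and replicate, Pearson's r of log2(CPM + 1) was 0.33 between the 2 genes. PH02Gene01639 had 0.06 with PH02Gene01641 and 0.54 with PH02Gene01637, PH02Gene01633 had 0.18 and -0.42, PH02Gene01635 had 0.49 and -0.12, and PH02Gene01643 had 0.36 and 0.21. These sums share 2 libraries and differ in depth, so r is a description. The sums of Cluster 12 and the smaller unmatched group hold 0 to 2 UMIs of either gene, yet weigh as much as the others. In replicate 1 Cluster 12 had 0 CPM of PH02Gene01641 and 36.5 CPM of PH02Gene01637, the latter from 2 UMIs. How far r rests on them was not tested.

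**Figure D5:**
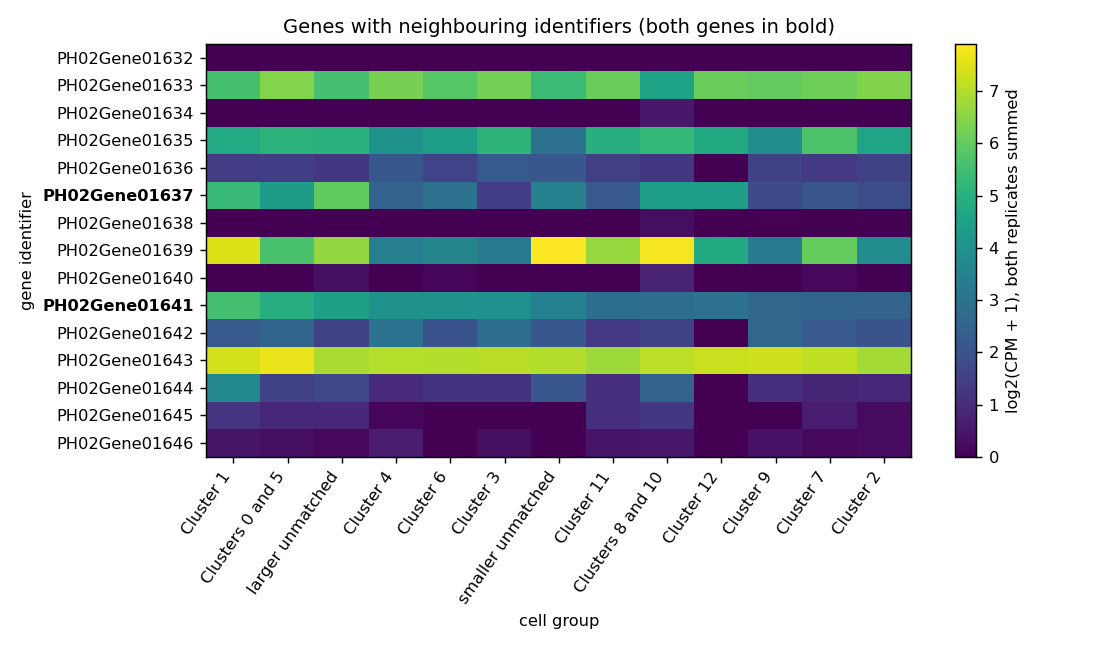
Level as log2(CPM + 1), both replicates summed (colour), of the 15 genes with identifiers from PH02Gene01632 to PH02Gene01646 (y axis) in each cell group (x axis, ordered by PH02Gene01641). PH02Gene01633 and PH02Gene01643 are bright in all groups, and PH02Gene01639 is brightest in the smaller unmatched group, Clusters 8 and 10 and Cluster 1.

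Likeness was ranked over 11201 genes, which took in PH02Gene02952 and those with at least 10 CPM on average over these sums. Those most like PH02Gene01641 were PH02Gene13036, PH02Gene32428, PH02Gene16014, PH02Gene20645 and PH02Gene13758, with r from 0.84 to 0.85. None of them has a description in the sources used here. PH02Gene02952 had r = 0.72 with PH02Gene01641. Those most like PH02Gene01637 were PH02Gene15427, PH02Gene11024, PH02Gene30420, PH02Gene23921 and PH02Gene37972, with r from 0.87 to 0.90. The study describes PH02Gene30420 as a beta-glucosidase, an enzyme that releases glucose from glucosides, and PH02Gene37972 as a stem-specific protein. PH02Gene15427 was also among the genes that led the larger unmatched group, with 293 and 180 CPM there. PH02Gene01637 was at place 4196 in the order of PH02Gene01641, and PH02Gene01641 at place 2390 in that of PH02Gene01637. Both places rest on the same sums, those of few UMIs included.

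Of the 12 other bamboo orthologs of rice loci listed by locus number, 9 had a UMI and 4 had over 100, while 3 had 0 UMIs in 15304 cells. These 4 were PH02Gene44471 with 330 UMIs, PH02Gene13174 with 319, PH02Gene18483 with 306 and PH02Gene02952 with 255, and they were the ones that passed the low count filter. In ground tissue against root cap 2 of the 4 were called higher, beside 25.0% of all genes, and PH02Gene13174 lower, beside 10.9%. Against initial cells and against epidermis 3 of 4 were called higher, beside 36.0% and 35.1% of all genes. In Cluster 1 against Cluster 0, PH02Gene44471 and PH02Gene02952 were called higher, beside 12.1% of all genes, PH02Gene02952 by 1.80 on the log2 scale (SE 0.31, edgeR adjusted p = 3.2e-06). In the cells matched to Cluster 10, 3 were higher, beside 24.5% of all genes, and PH02Gene02952 had -2.35 (SE 0.42, edgeR adjusted p = 2.3e-06), where 22.7% were lower. In the undefined clusters the 4 tested were lower, beside 37.8% of all genes. PH02Gene13174 was at 593 CPM in Cluster 12 and PH02Gene18483 at 153 CPM in the smaller unmatched group, groups in which PH02Gene01641 and PH02Gene01637 had at most 3 UMIs each.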

How the data were processed

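Both libraries were made with the 10x Genomics Chromium 3' v3 kit. The deposited values are counts of UMIs per gene and barcode, without normalization, which the authors made with Cell Ranger 5.0.1 and STAR on the moso bamboo genome. The build is not given in the sources used here.

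Cells with more than 500 genes were kept, and doublets were neither called nor removed. Seurat 5.3.0 (R 4.3.3) merged the replicates without integration and clustered them on 2000 variable genes, 20 principal components and a resolution of 0.8. The genes described and the markers, 38 genes, were kept out of the variable genes. To match clusters, log2(CPM + 1) of each marker was standardised over the re-derived clusters and averaged over a cluster's markers, and the top one was taken. The study chose these markers on the same libraries. The members and gene lists were chosen with earlier results of these data known.

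Subclusters used the same settings with 1 thread and seed 1. Counts were summed per group and replicate (26 sums) and tested in 1 fit with edgeR 4.0.16 (quasi-likelihood test, TMM, filterByExpr, no replicate block), p-values of all 22471 genes being adjusted by Benjamini-Hochberg and called below 0.05. A side of several groups was the mean of their coefficients, each group once. The SE is the log2 difference divided by the square root of F. The fit had 13 residual degrees of freedom and a common biological coefficient of variation of 0.0713, which describes 2 libraries. A number marks the same library in every group, so the replicates pair by construction, and over 78 pairs of groups the deviations of same-numbered sums correlated with a median of 0.0059.

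Simulated counts were used to test edgeR for ground tissue against root cap. When 200 genes of 10 to 20 CPM were given 2-fold changes, 173 were found beside 57 false calls over 21164 genes, and 194 with 6 false calls when Cluster 12, the group of 41 cells, was left out of root cap. Of 200 changed 4-fold over 21165 genes it recovered 200 either way, with 42 and 8 false calls. Results with root cap were therefore repeated without Cluster 12.

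The genes named are both orthologs, PH02Gene02952, the 5 genes most like each by Pearson's r among genes of at least 10 CPM, genes with neighbouring identifiers of at least 10 CPM, and the 4 listed rice orthologs with the most UMIs. PH02Gene01644, below 10 CPM, is named because it was highest in Cluster 1, and PH02Gene36478 because it is a marker of Cluster 10. Alternatives were a minimum of 200 genes, resolutions 0.6 and 1.0, 30 components, members and markers among the variable genes, cells with at least 2000 UMIs, cells thinned to 500 UMIs, RLE size factors, DESeq2 1.42.0, no filter, a replicate block and each replicate left out. Other steps used Python 3.11.15, numpy 2.4.6, scipy 1.17.1, pandas 2.3.3 and Matrix 1.6.5.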

Additional observations from a re-analysis of the deposited data

How the results depend on the processing

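Of 153 tested values under the alternatives, over 14 results (7 comparisons of 2 genes, 12 of them called), 123 kept their sign and their side of the threshold, 15 kept the sign and lost the call, and 15 changed sign. No result was called only under an alternative with its sign kept. The cause was not tested. Log2 differences are given here unless another unit is named.

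At a resolution of 1.0, PH02Gene01641 had -0.22 for ground tissue against epidermis, 0.75 for Cluster 1 against Cluster 0, -0.74 for Cluster 10 and -0.18 for the undefined cells, and PH02Gene01637 had 0.95 for ground tissue against root cap, 0.65 against epidermis, 0.64 for Cluster 1 against Cluster 0, 2.18 for Cluster 10 and 0.91 for root cap against initial cells. With members and markers among the variable genes, PH02Gene01641 had 0.33 against epidermis, -0.064 for Cluster 1 against Cluster 0, 0.74 for Cluster 10 and 0.24 for root cap against initial cells, and PH02Gene01637 had 0.33 against root cap, -0.072 for Cluster 1 against Cluster 0 and 2.47 for Cluster 10. With at least 200 genes per cell PH02Gene01641 had 0.51 for Cluster 1 against Cluster 0 (adjusted p = 0.055) and 0.24 for root cap against initial cells, and PH02Gene01637 had 1.42 for Cluster 10. At a resolution of 0.6 the last 2 were 0.36 and 1.43. In cells with at least 2000 UMIs PH02Gene01641 had 0.29 against epidermis and 0.022 for root cap against initial cells, where PH02Gene01637 had 1.80. With cells thinned to 500 UMIs PH02Gene01641 did not pass the filter on low counts and gave no value, and PH02Gene01637 had 0.27 for Cluster 10 and 4.83 for root cap against initial cells. Without a filter PH02Gene01641 had 0.48 for Cluster 1 against Cluster 0 (adjusted p = 0.12). For root cap against initial cells PH02Gene01641 had 0.033 with RLE size factors and 0.038 with DESeq2, and PH02Gene01637 had 0.79 without the cells of Clusters 8 and 10, an alternative added after seeing the data. Leaving out Cluster 12, also added then, changed no call. RLE size factors moved all differences of a comparison by -0.15 to 0.44.

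The replicate block changed no call, with PH02Gene01641 at 2.31 and PH02Gene01637 at 1.39 for ground tissue against root cap.

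With 1 replicate left out, which leaves no test, PH02Gene01641 ranged from 2.01 to 4.11 for ground tissue against root cap, -1.01 to -0.94 for the undefined cells and -2.30 to 0.19 for root cap against initial cells. PH02Gene01637 ranged from 1.43 to 1.47 for ground tissue against root cap and -0.25 to 0.082 for Cluster 10. The values of 4.11 and -2.30 are from replicate 1 alone, where Cluster 12 held 0 UMIs of PH02Gene01641.

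In Cluster 1 the mean level of PH02Gene01641 was 48.4 CPM at a resolution of 0.6, 26.1 CPM at 1.0, 29.0 CPM with members and markers among the variable genes, 21.3 CPM in cells with at least 2000 UMIs and 55.5 CPM in thinned cells, and that of PH02Gene01637 was 49.4, 18.9, 16.8 and 29.2 CPM in the first 4 and 50.1 CPM with 30 principal components. At a resolution of 1.0 an unmatched group of 616 cells was highest for both genes, at 88.7 and 93.6 CPM. The ratio of cells with both genes to the product of shares was 1.75 over both replicates, 1.97 with at least 200 genes per cell, 1.93 and 1.60 at resolutions of 0.6 and 1.0, 1.91 with members and markers among the variable genes and 1.30 in thinned cells, where 3 cells held both. Within ground tissue the highest subcluster had a mean of 83.9 CPM of PH02Gene01641, and 78.1 CPM at a resolution of 1.0 and 77.2 CPM with random seed 3 of that step. The division into subclusters moved even with the number of processor threads, through rounding, and 1 thread was used.

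The genes called in either direction are counts over 22471 genes tested, but over 7694 in thinned cells, 21280 in cells with at least 2000 UMIs, 23600 at a resolution of 0.6 and 24082 at 200 genes per cell. For ground tissue against root cap they were 8064, 2137 in thinned cells and 2718 in cells with at least 2000 UMIs, and a resolution of 0.6 gave 12793. For Cluster 1 against Cluster 0 they were 5899 and 2126 in thinned cells, for initial cells 15199 and 4220, and for root cap against initial cells 10030 and 2496, with 15231 at a resolution of 0.6. For epidermis they were 15294, 4425 in thinned cells and 9613 in cells with at least 2000 UMIs, for the undefined cells 15635, 4732 and 10321, and for Cluster 10 10609, 2661 and 6539, with 6905 at 200 genes per cell. With 1083 and 1023 UMIs in all, levels of either gene in groups of few cells rest on single transcripts.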
